A study of Mus musculus with 16 samples.

Results

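Axon guidance ligands and receptors are the secreted and cell-surface proteins that steer growing axons, together with the collapsin response mediator proteins (CRMPs) that carry semaphorin signals to the cytoskeleton. The set described here was a list of 49 genes: semaphorins with their neuropilin and plexin receptors, ephrins and Eph receptors, Slits and Robo receptors, netrin 1 with the receptors Dcc and Unc5, *Rgma* and its receptor *Neo1*, 4 CRMPs and the contactin *Cntn2*. A probe carried the symbol or gene number of 47 of the 49, out of 17871 genes with a probe, and *Dcc* and *Cntn2* were not analysed here. Of the 47 genes, 41 had a brightest probe that was detected on at least 4 of the 16 arrays and were tested, while *Efna2*, *Ephb3*, *Ntn1*, *Plxna1*, *Plxna4* and *Plxnc1* fell below that limit.

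Hippocampal RNA came from 16 mice in 4 groups of 4, WT and *Mef2c*-het at postnatal day (P) 1 and at P30, with 1 Illumina MouseRef-8 v2 beadchip array per mouse. The *Mef2c*-het mice, which the labels call KO, carried 1 germline allele of the transcription factor gene *Mef2c* lacking exon 2, on a C57BL/6J background, and the WT mice were littermates. The RNA was from frozen tissue of the hippocampi, and the study's methods name no subfield for it. Neither sex nor litter nor chip is in the labels. Values are the log2 of the bead signal after quantile normalization, and a level of one probe cannot be set against that of another.

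Guidance cues act in pairs of ligand and receptor. Class 3 semaphorins bind a neuropilin that signals through a plexin, ephrins bind Eph receptors on the neighbouring cell, Slits repel axons through Robo receptors, and netrin attracts through Dcc and repels through Unc5. In the hippocampus these systems pattern the entorhinal, mossy fibre and commissural projections around birth, and several of the same proteins later sit at synapses.

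The arrays of an age correlated with each other at 0.9851 to 0.9968, and 12638 to 14150 probes were detected on each. At each age the arrays were cut into 2 clusters by the correlations of their own signals. The clusters differed in dim signals and held both genotypes. The smaller one held 2 of the 8 P1 arrays (WT replicate 8 and *Mef2c*-het replicate 8). At P30 it held 3 of the 8 arrays (WT replicates 6 and 7 and *Mef2c*-het replicate 7). By *Xist* and Y-linked transcripts, 3 WT and 2 *Mef2c*-het mice at P1 were female and all 8 mice at P30 were male. For *Mef2c* itself, one tested probe gave 8.59, 8.62, 8.70 and 8.96 in WT and 8.16, 8.16, 8.42 and 8.95 in *Mef2c*-het at P30, the other gave 9.61, 9.62, 9.80 and 9.80 against 8.97, 9.20, 9.76 and 9.92, and neither difference passed the test (unadjusted p = 0.0778 and 0.167 by limma). At P1 the 2 probes differed by 0.07 and -0.01, with ranges of 8.31 to 8.47 in WT and 8.19 to 8.79 in *Mef2c*-het for the first and of 9.39 to 9.61 and 9.15 to 9.73 for the second. Whether these probes lie in the deleted exon was not tested, so they check the labels only in part.

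The 4 genes whose upstream sequences follow mark the ends of the results in the main fit. *Dpysl5* and *Unc5c* had the largest fall and the largest rise between P1 and P30. *Ephb1* and *Nrp1* were the 2 members with an unadjusted p under 0.05 between genotypes at P30. Each sequence is the 250 bases before the RefSeq gene start in GRCm38.p6, 5′ to 3′ on the strand of the gene, for *Dpysl5* chr5:30711314-30711563 (plus strand), *Unc5c* chr3:141465314-141465563 (plus), *Ephb1* chr9:102354694-102354943 (minus) and *Nrp1* chr8:128358823-128359072 (plus). Capitals mark a match on either strand to the GC box GGGCGG, the only motif of those searched that was found in these 4 windows.
Dpysl5: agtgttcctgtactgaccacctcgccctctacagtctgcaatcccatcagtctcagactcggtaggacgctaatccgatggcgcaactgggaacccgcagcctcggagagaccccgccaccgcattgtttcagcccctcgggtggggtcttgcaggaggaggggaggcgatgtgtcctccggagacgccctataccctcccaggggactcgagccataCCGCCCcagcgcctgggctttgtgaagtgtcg
Unc5c: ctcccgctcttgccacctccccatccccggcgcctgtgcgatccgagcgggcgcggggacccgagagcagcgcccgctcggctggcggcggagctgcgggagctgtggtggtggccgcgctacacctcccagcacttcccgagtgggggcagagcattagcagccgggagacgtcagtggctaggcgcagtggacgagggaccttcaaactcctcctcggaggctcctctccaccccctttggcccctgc
Ephb1: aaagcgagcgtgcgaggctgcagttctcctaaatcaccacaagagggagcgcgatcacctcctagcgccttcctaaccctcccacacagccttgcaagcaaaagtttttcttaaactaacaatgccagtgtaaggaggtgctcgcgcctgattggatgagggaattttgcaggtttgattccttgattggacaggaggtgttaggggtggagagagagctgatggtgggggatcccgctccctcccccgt
Nrp1: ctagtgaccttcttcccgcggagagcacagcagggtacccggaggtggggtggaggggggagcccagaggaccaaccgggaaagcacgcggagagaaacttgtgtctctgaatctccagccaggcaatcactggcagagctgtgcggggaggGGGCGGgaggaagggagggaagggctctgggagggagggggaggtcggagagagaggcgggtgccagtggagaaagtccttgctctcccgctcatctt

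RefSeq gave 47 such windows for 38 of the listed genes. A GC box lay in 70.2% of them and in 32.7% of all 32851 windows, and the median GC content was 65.6% against 52.4%. The windows in all are of 27025 genes, more than the 17871 with a probe. They take in genes outside the array, so their shares are not those of the tested genes. The MEF2 consensus, searched by that name on both strands, lay in 2.13% of the members' windows, that of *Sema6d* alone, and in 2.92% of all windows. The E-box forms CAGATG and CAGCTG lay in 14.9% against 25.5% and TATAAA in 4.26% against 12.4%. These matches describe letters in a window, and none is shown to be a site.

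Between P1 and P30 the guidance genes of the WT hippocampus fell more often than they rose. Of the 41 tested members, 18 were lower at P30, 7 were higher and 16 did not pass the adjusted threshold of 0.05. That is 43.9% lower and 17.1% higher, beside 32.8% lower and 29.1% higher among the 10800 genes tested with 1 probe each. The members were chosen with earlier results of these data known, so these shares are descriptive and their difference was not tested. The median log2 fold change was -0.14 over the members and -0.03 over all genes, and the members ranged from -3.97 to 1.67. All 4 CRMPs fell, the 3 measured Unc5 netrin receptors rose, and both *Rgma* and *Neo1* fell. Among the 8 semaphorin ligands 4 fell and 2 rose, among the 8 Eph receptors 4 fell and none rose, and among the 6 ephrins 2 fell and 1 rose. These counts take the brightest probe of each gene, and *Epha7* rose at its other tested probes, as given further on.

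**Figure D1:**
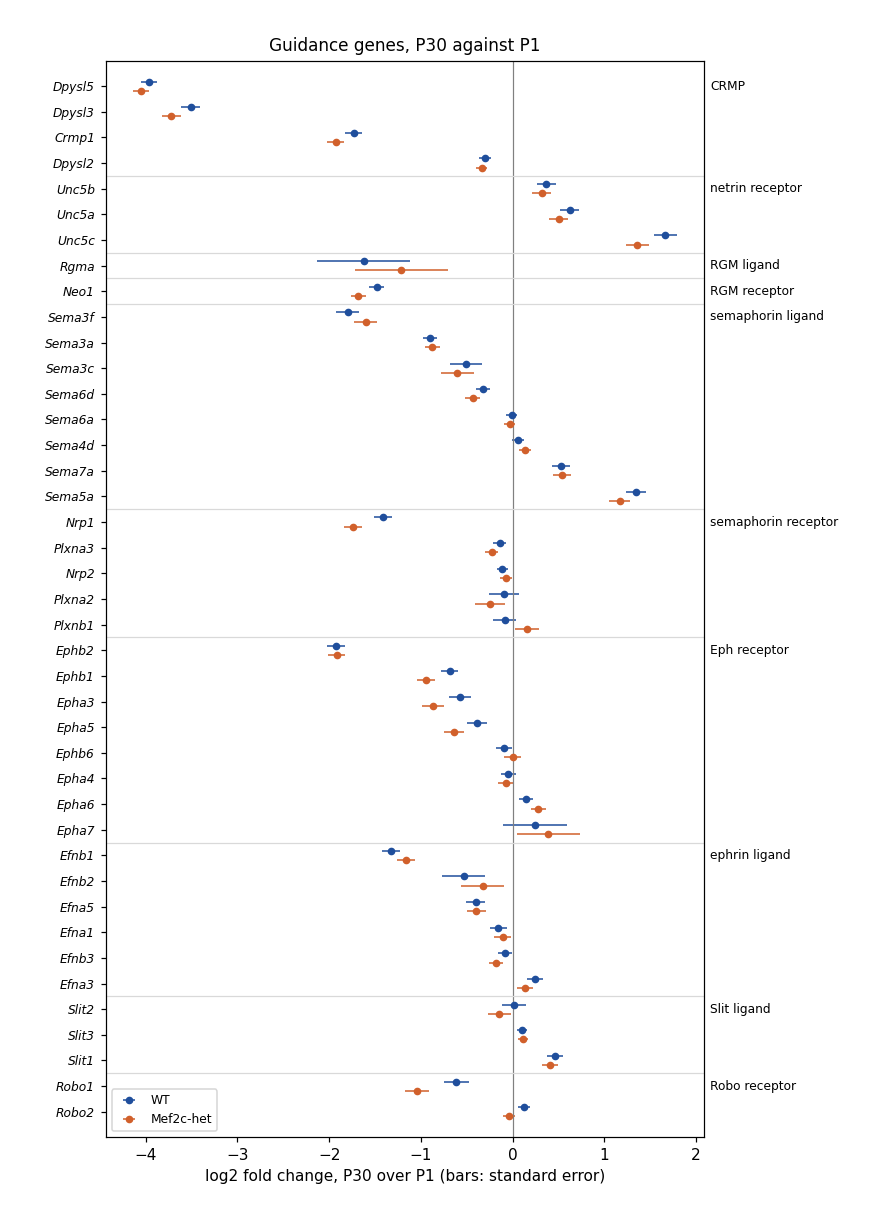
log2 fold change at P30 over P1 (x axis) of the 41 tested guidance genes (y axis, 1 probe each), grouped by role, in WT (blue) and *Mef2c*-het mice (orange), with bars for the standard error of the limma fit on 4 arrays per group. The CRMPs lie to the left, down to -3.97 for *Dpysl5* in WT, the Unc5 receptors lie to the right, up to 1.67 for *Unc5c*, and the bars of *Rgma* and *Epha7* are the widest. *Sema3c*, *Nrp2* and *Plxna3*, not detected at P30, and *Sema6a* in *Mef2c*-het mice, not detected at P30 there, are drawn at their fitted values, which are not measured folds.

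Other cell types changed with age in the same RNA. All 10 tested oligodendrocyte markers were higher at P30 in WT (median log2 fold change 4.21), and their summed signal went from 7683 to 9281 at P1 to 77120 to 92190 at P30, with *Mog*, *Mobp* and *Olig2* not detected at P1 and *Ermn* not detected at either age. All 7 tested markers of proliferating cells were lower (median -2.19), with a summed signal of 5203 to 6494 at P1 and 1554 to 1654 at P30, and 7 of 8 astrocyte markers were higher (median 0.81). Markers of hippocampal principal neurons moved both ways, 4 of 11 higher and 4 lower, and 10 of the 12 with a probe were detected on all 4 WT arrays at either age. Of the other lists, 6 of 8 interneuron markers were higher and 2 lower, 7 of 9 microglial ones were higher and none lower, and 1 of 6 endothelial ones was higher and 4 lower. Markers of tissue next to the hippocampus moved both ways, with 3 of 7 higher and 4 lower for thalamus, 2 and 1 of 7 for choroid plexus and 1 and 2 of 7 for meninges. In RNA of hippocampal tissue with many cell types, fewer cells of a type and less RNA per cell cannot be told apart. The part of these shifts in the guidance genes was not tested.

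The 2 largest falls were those of the CRMPs *Dpysl5* and *Dpysl3*. Several CRMPs bind tubulin and are phosphorylated downstream of semaphorin 3A, and *Dpysl3* is in common use as a marker of newly formed neurons. *Dpysl5* measured 12.95, 13.06, 13.09 and 13.09 in WT at P1 and 8.97, 9.07, 9.13 and 9.15 at P30, a 15.6-fold fall (log2 -3.97 ± 0.0884 SE, adjusted p = 3.15e-15). *Dpysl3* went from 11.22, 11.39, 11.45 and 11.60 to 7.78, 7.83, 7.92 and 8.08, 11.4-fold lower (log2 -3.51 ± 0.103 SE, adjusted p = 8.75e-14). In both genes every P30 array lay more than 3 log2 units below every P1 array. *Crmp1* went from 12.88, 13.03, 13.05 and 13.16 to 11.19, 11.24, 11.27 and 11.50 (3.32-fold lower, log2 -1.73 ± 0.0949 SE, adjusted p = 1.39e-10), and its second probe gave -1.85. *Dpysl2*, which encodes CRMP2 and promotes axon outgrowth, had the smallest of the 18 falls, from a range of 14.33 to 14.47 to 13.99 to 14.19 (1.23-fold, log2 -0.30 ± 0.0627 SE, adjusted p = 0.000609), with -0.29 and -0.27 at its 2 other tested probes.

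The netrin receptors moved the other way. Unc5 proteins mediate repulsion from netrin and are dependence receptors, which trigger cell death when their ligand is absent. *Unc5c* measured 8.07, 8.21, 8.40 and 8.56 in WT at P1 and 9.82, 9.88, 10.05 and 10.15 at P30, the largest rise of the set at 3.18-fold (log2 1.67 ± 0.125 SE, adjusted p = 6.84e-09). *Unc5a* rose from 7.52, 7.57, 7.71 and 7.71 to 7.97, 8.29, 8.37 and 8.38 (1.54-fold, log2 0.62 ± 0.103 SE, adjusted p = 6.13e-05). For these 2 genes no P30 array reached down to a P1 array. *Unc5b* rose from 7.53, 7.54, 7.54 and 7.58 to 7.67, 7.88, 8.03 and 8.09 (1.29-fold, log2 0.37 ± 0.106 SE, adjusted p = 0.00642), again with no overlap. Without the arrays of the smaller clusters *Unc5b* had 0.25 (adjusted p = 0.0971) and lost its call, and its adjusted p ran from 0.00144 to 0.0971 over all alternatives.

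*Neo1* encodes neogenin, a relative of Dcc that binds both netrins and the repulsive guidance molecules of which *Rgma* is one. *Neo1* went from 11.27, 11.37, 11.47 and 11.49 in WT at P1 to 9.83, 9.91, 9.95 and 9.99 at P30, 2.79-fold lower with no overlap (log2 -1.48 ± 0.0819 SE, adjusted p = 1.54e-10). *Rgma* measured 9.07, 10.65, 10.92 and 10.94 at P1 and 7.98, 8.10, 9.48 and 9.52 at P30 (3.08-fold lower, log2 -1.63 ± 0.507 SE, adjusted p = 0.0111). In every group the lowest *Rgma* values were those of the smaller array cluster, as described further on.

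The 3 class 3 semaphorins among the members fell. *Sema3f*, the repellent ligand of neuropilin 2 and the one of these 3 with the largest change, went from 9.37, 9.50, 9.71 and 9.84 in WT at P1 to 7.67, 7.78, 7.86 and 7.92 at P30 (3.47-fold lower, log2 -1.80 ± 0.127 SE, adjusted p = 3.27e-09). Its second probe gave -1.45. *Sema3a*, the founding collapsin and ligand of neuropilin 1, went from 8.42, 8.52, 8.54 and 8.72 to 7.46, 7.69, 7.70 and 7.74 (1.87-fold lower, log2 -0.90 ± 0.0788 SE, adjusted p = 4.48e-08). Neither gene had a P30 array at the level of a P1 array. *Sema3c* was detected on 3 of 4 arrays at P1 in WT and on none at P30, so its fall was at least 1.24-fold (adjusted p = 0.0211), and the call was lost without WT P1 replicate 4 (adjusted p = 0.0503), without WT P1 replicate 5 (0.0845) and without WT P30 replicate 6 (0.0549), in a range of 0.000264 to 0.343 over all alternatives. The transmembrane *Sema6d* fell by 1.25-fold (log2 -0.32 ± 0.078 SE, adjusted p = 0.00192), while a second, dimmer probe of it gave 0.01 (adjusted p = 0.9).

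Among the membrane-bound semaphorins *Sema5a* and *Sema7a* rose. *Sema5a*, which restrains synapse number on granule neurons of the dentate gyrus, went from 10.06, 10.09, 10.13 and 10.51 to 11.42, 11.47, 11.63 and 11.67 in WT (2.54-fold higher, log2 1.35 ± 0.112 SE, adjusted p = 2.58e-08), and its second probe gave 1.27. *Sema7a*, the GPI-anchored semaphorin that promotes axon growth through integrins, went from 10.09, 10.23, 10.35 and 10.41 to 10.57, 10.70, 10.88 and 11.05 (1.44-fold higher, log2 0.53 ± 0.0995 SE, adjusted p = 0.000219). *Sema4d* (0.06) and *Sema6a* (-0.01) did not pass the test, with P1 and P30 arrays that overlapped.

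Of the 5 tested semaphorin receptors 1 fell. *Nrp1*, the neuropilin that binds *Sema3a* and also VEGF, had 2 probes. The brighter one measured 12.45, 12.58, 12.71 and 12.78 in WT at P1 and 11.10, 11.13, 11.17 and 11.48 at P30 (2.66-fold lower, log2 -1.41 ± 0.102 SE, adjusted p = 3.99e-09). The other one measured 12.56, 12.62, 12.65 and 12.71 and 10.97, 11.09, 11.22 and 11.37 (2.78-fold lower, log2 -1.47 ± 0.0962 SE, adjusted p = 1.25e-09), so that at both probes every P30 array lay below every P1 array. The plexins, which signal for semaphorins inside the cell, did not pass the test, with -0.10 for *Plxna2* and -0.09 for *Plxnb1*. *Nrp2* and *Plxna3* were not detected on any P30 array of either genotype, and for neither brightest probe does that leave a bound above 1-fold in WT. A dimmer *Nrp2* probe, likewise not detected at P30, was at least 1.04-fold lower in WT (adjusted p = 0.0112).

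**Figure D2:**
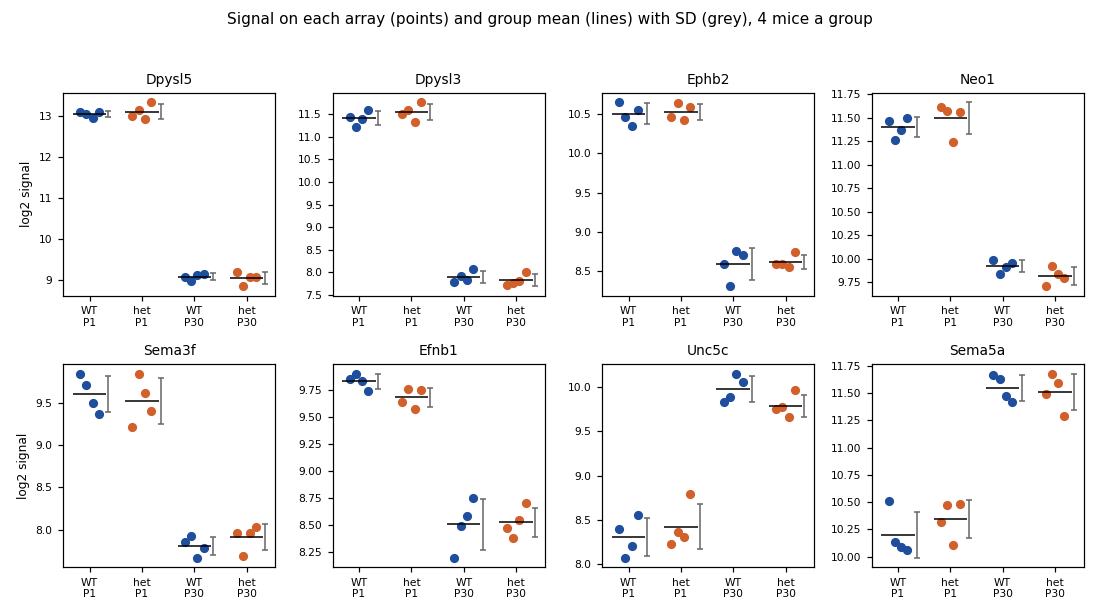
log2 signal (y axis, with its own scale in each panel, not starting at 0) on each of the 16 arrays for 8 guidance genes in the 4 groups (x axis), WT in blue and *Mef2c*-het (het) in orange, with the group mean as a line and the SD as a grey bar. *Dpysl5*, *Dpysl3*, *Ephb2*, *Neo1*, *Sema3f* and *Efnb1* were lower on every P30 array than on any P1 array, and *Unc5c* and *Sema5a* were higher.

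Eph receptors are tyrosine kinases, of which the EphB class binds mainly B-type ephrins and holds NMDA receptors at the synapse. *Ephb2* measured 10.35, 10.47, 10.56 and 10.66 in WT at P1 and 8.30, 8.58, 8.70 and 8.76 at P30 (3.8-fold lower, log2 -1.93 ± 0.0939 SE, adjusted p = 3.35e-11), the largest fall among receptors. *Ephb1* went from 11.30, 11.33, 11.35 and 11.59 to 10.48, 10.73, 10.78 and 10.82 (1.61-fold lower, log2 -0.69 ± 0.0961 SE, adjusted p = 1.10e-05). In both genes all WT arrays at P30 lay below all those at P1. *Epha3* fell by 1.49-fold (log2 -0.57 ± 0.123 SE, adjusted p = 0.000749) and *Epha5* by 1.31-fold (log2 -0.39 ± 0.108 SE, adjusted p = 0.0056). These are A-class receptors for GPI-anchored ephrins, and for *Epha3* the 2 dimmer probes gave -0.20 and -0.10. The remaining receptors did not pass the test at their brightest probe, with -0.05 for *Epha4*, 0.15 for *Epha6*, 0.25 for *Epha7* and -0.09 for the kinase-dead *Ephb6*.

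Among the ephrins *Efnb1*, a transmembrane ligand of EphB receptors, fell from 9.74, 9.83, 9.85 and 9.90 in WT at P1 to 8.20, 8.50, 8.58 and 8.75 at P30 (2.5-fold lower, log2 -1.32 ± 0.0982 SE, adjusted p = 6.04e-09). *Efna5*, which shapes topographic maps, fell by 1.32-fold (log2 -0.40 ± 0.105 SE, adjusted p = 0.00344). *Efna3*, a ligand of EphA4, measured 7.46, 7.56, 7.61 and 7.78 at P1 and 7.77, 7.77, 7.88 and 7.96 at P30 (1.18-fold higher, adjusted p = 0.0276), and the highest P1 array lay above the lowest P30 array. Its call was lost without WT P1 replicate 1 (0.20 on the log2 scale, adjusted p = 0.0903), WT P1 replicate 8 (0.23, 0.0588), WT P30 replicate 6 (0.23, 0.0599) or WT P30 replicate 7 (0.21, 0.0829), and its adjusted p ran from 0.00736 to 0.54 over all alternatives. *Efna1*, *Efnb2* and *Efnb3* did not pass the test, with -0.16, -0.53 and -0.08.

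In the Slit and Robo system a ligand rose and a receptor fell. *Robo1* went from 11.13, 11.30, 11.38 and 11.57 in WT at P1 to 10.63, 10.64, 10.79 and 10.86 at P30 (1.53-fold lower, log2 -0.61 ± 0.136 SE, adjusted p = 0.000967). *Slit1* rose from 7.27, 7.31, 7.37 and 7.40, detected on 3 of 4 arrays, to 7.58, 7.72, 7.86 and 8.02 (1.38-fold higher, log2 0.46 ± 0.0867 SE, adjusted p = 0.000225). The arrays of the 2 ages did not overlap for either gene. *Robo2* (0.12), *Slit2* (0.01) and *Slit3* (0.10) did not pass the test.

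Some members differed between the array clusters of an age. At P1 and at P30, 7 of the 41 members differed between the clusters of an age at an adjusted p under 0.05, beside 15.4% and 18.1% of all genes. The clusters were cut from the signals of these same arrays, so these p-values describe the split and do not test it. As differences of the smaller from the larger cluster on the log2 scale, *Rgma* had -1.61 at P1 and -1.49 at P30, and the brightest probe of *Epha7* had -0.74 and -1.21. *Efnb2*, ligand of EphB4 in vessels and of EphB2 in neurons, had -0.83 and -0.43, and *Unc5c* had 0.41 and 0.24. With the cluster as a block, the WT fall of *Rgma* was -1.28 ± 0.118 SE, and without the smaller clusters it was -1.34 ± 0.138 SE, against -1.63 ± 0.507 SE with no such term. *Unc5c* had 1.65 in both of these fits. Since both fits use clusters taken from the same signals, their smaller errors are no independent evidence.

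*Epha7* gave a different result at each of its tested probes. The brightest measured 8.62, 8.98, 9.33 and 9.65 in WT at P1 and 8.644, 8.996, 9.932 and 9.999 at P30 (log2 0.25 ± 0.348 SE, adjusted p = 0.565). The next brightest measured 8.14, 8.33, 8.36 and 8.67 and 9.35, 9.43, 9.50 and 9.72 (2.18-fold higher, log2 1.13 ± 0.109 SE, adjusted p = 1.52e-07), with no overlap and with a cluster difference of 0.03 at P1 and 0.24 at P30. The third gave 0.34 (adjusted p = 0.00292). By the rule of the brightest probe *Epha7* counts among the 16 members with no call.

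**Figure D3:**
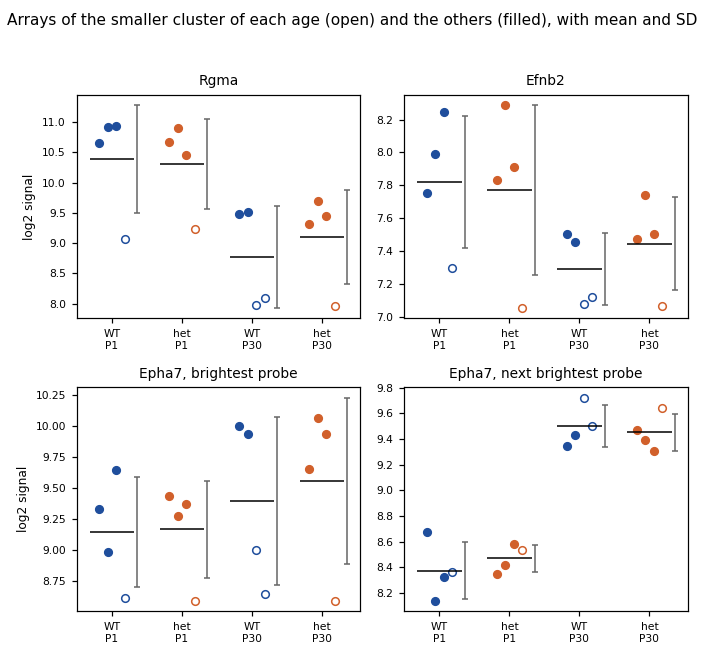
log2 signal (y axis, own scale in each panel, not starting at 0) of *Rgma*, *Efnb2* and 2 *Epha7* probes on each array by group (x axis), WT in blue and *Mef2c*-het (het) in orange, with open points for the smaller array cluster of each age, lines for the group mean and grey bars for the SD. In the *Rgma*, *Efnb2* and brightest *Epha7* panels every open point lies below the filled points of its group, which the second *Epha7* probe does not show.

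In *Mef2c*-het mice the same comparison of ages again gave 18 members lower and 7 higher of 41, beside 33% lower and 27.9% higher of all genes. The arrays are separate from those of the WT comparison. Both genotypes shared 17 falls and 6 rises, 14 members were called in neither, no member was called in opposite directions, and 37 of the 41 had the same sign. *Dpysl5* measured 12.93, 12.99, 13.15 and 13.34 at P1 and 8.85, 9.06, 9.09 and 9.20 at P30 (16.6-fold lower), and *Unc5c* measured 8.23, 8.31, 8.37 and 8.79 and 9.66, 9.75, 9.77 and 9.96 (2.57-fold higher). *Ephb2*, at 10.43, 10.46, 10.60 and 10.64 and 8.54, 8.59, 8.59 and 8.74, was 3.77-fold lower. The largest fall and the largest rise were thus those of the same genes as in WT mice.

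*Dpysl3* measured 11.32, 11.51, 11.59 and 11.77 at P1 and 7.72, 7.76, 7.81 and 8.02 at P30 in *Mef2c*-het mice (13.2-fold lower), *Neo1* measured 11.24, 11.56, 11.57 and 11.61 and 9.70, 9.79, 9.84 and 9.93 (3.2-fold lower) and *Sema3f* measured 9.21, 9.40, 9.61 and 9.84 and 7.69, 7.96, 7.97 and 8.03 (3.04-fold lower). *Efnb1* went from 9.58, 9.64, 9.75 and 9.76 to 8.38, 8.47, 8.55 and 8.70 (2.23-fold lower) and *Sema3a* from 8.57, 8.60, 8.64 and 8.70 to 7.64, 7.71, 7.76 and 7.91 (1.83-fold lower). In all 5 genes the ages did not overlap. Of the remaining falls, *Crmp1* had -1.93, *Nrp1* -1.74, *Robo1* -1.04, *Ephb1* -0.94, *Epha3* -0.87 and *Epha5* -0.64 on the log2 scale.

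Among the rises of *Mef2c*-het mice, *Sema5a* went from 10.11, 10.32, 10.47 and 10.48 to 11.29, 11.49, 11.59 and 11.68 (2.25-fold higher) and *Sema7a* from 10.14, 10.17, 10.30 and 10.46 to 10.76, 10.78, 10.85 and 10.85 (1.46-fold higher). *Unc5a* went from 7.51, 7.64, 7.73 and 7.87 to 8.10, 8.10, 8.13 and 8.42 (1.42-fold higher). *Slit1*, detected on 2 of 4 arrays at P1, rose by 0.41 on the log2 scale. The ages again did not overlap in *Sema5a*, *Sema7a* and *Unc5a*. *Unc5b*, at 0.32 (adjusted p = 0.0163), lost its call without *Mef2c*-het P1 replicate 2 (adjusted p = 0.0637), P30 replicate 3 (0.0535) or P30 replicate 7 (0.0526), and had 0.16 (adjusted p = 0.373) with the replicate number as a block. Few replicate numbers occur at both ages, as given further on. *Sema3c*, not detected at P30 here either, was at least 1.36-fold lower, and lost its call with sex as a covariate (adjusted p = 0.0582). *Rgma* had -1.21 (adjusted p = 0.0506) and *Efna3* 0.14 (adjusted p = 0.209), which are calls in WT only. *Epha6* had 0.28 (adjusted p = 0.00539) and *Plxna3* was lower (adjusted p = 0.0119), which are calls in *Mef2c*-het only. At P1 *Epha6* was detected on 3 of 4 *Mef2c*-het and 2 of 4 WT arrays, near background. *Plxna3* was not detected on any *Mef2c*-het array at P30, so its fall was at least 0.021 on the log2 scale. The test of a genotype difference in the change with age was not passed by *Rgma*, *Efna3* or *Epha6* (unadjusted p = 0.573, 0.411 and 0.25 by limma).

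Sex moved with age in these arrays, and a sex term was fitted as a covariate. All P30 mice were male, so that term rests on the P1 arrays alone. There the males, 1 WT and 2 *Mef2c*-het, include both arrays of the smaller cluster. *Rgma* and *Sema3c* had -1.61 and -0.64 in that cluster at P1, so for them sex and cluster are not separated. With that term, 6 members were higher and 18 lower in WT, and *Rgma* (-0.84, adjusted p = 0.252), *Sema3c* (-0.25, 0.343) and *Efna3* (0.23, 0.122) lost their calls. *Unc5c* had 1.43 in that fit. *Efnb1* and *Plxna3* lie on the X chromosome.

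The question of the genotype comparison was whether loss of 1 *Mef2c* allele shifted guidance genes. No member passed the adjusted threshold at P1 or at P30 (limma, lowest adjusted p = 1 and 0.994), and 38 of the 41 log2 differences were within 0.2 of zero at either age. Those within 0.2 at P30 include *Sema3c*, *Nrp2* and *Plxna3*, not detected there in either genotype, and *Sema6a*, not detected there in *Mef2c*-het mice. Their small differences are not measured ones. Over all genes 2 passed at P1 (0.0185%) and 1 at P30 (0.00926%). The standard error of a member's genotype difference had a median of 0.0961 and ran from 0.057 to 0.507 for *Rgma*. At an unadjusted p under 0.05, 2 members were higher in *Mef2c*-het at P1 and none lower, beside 1.11% higher and 1.21% lower of all genes. At P30 none was higher and 2 were lower, beside 0.963% and 2.04%.

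**Figure D4:**
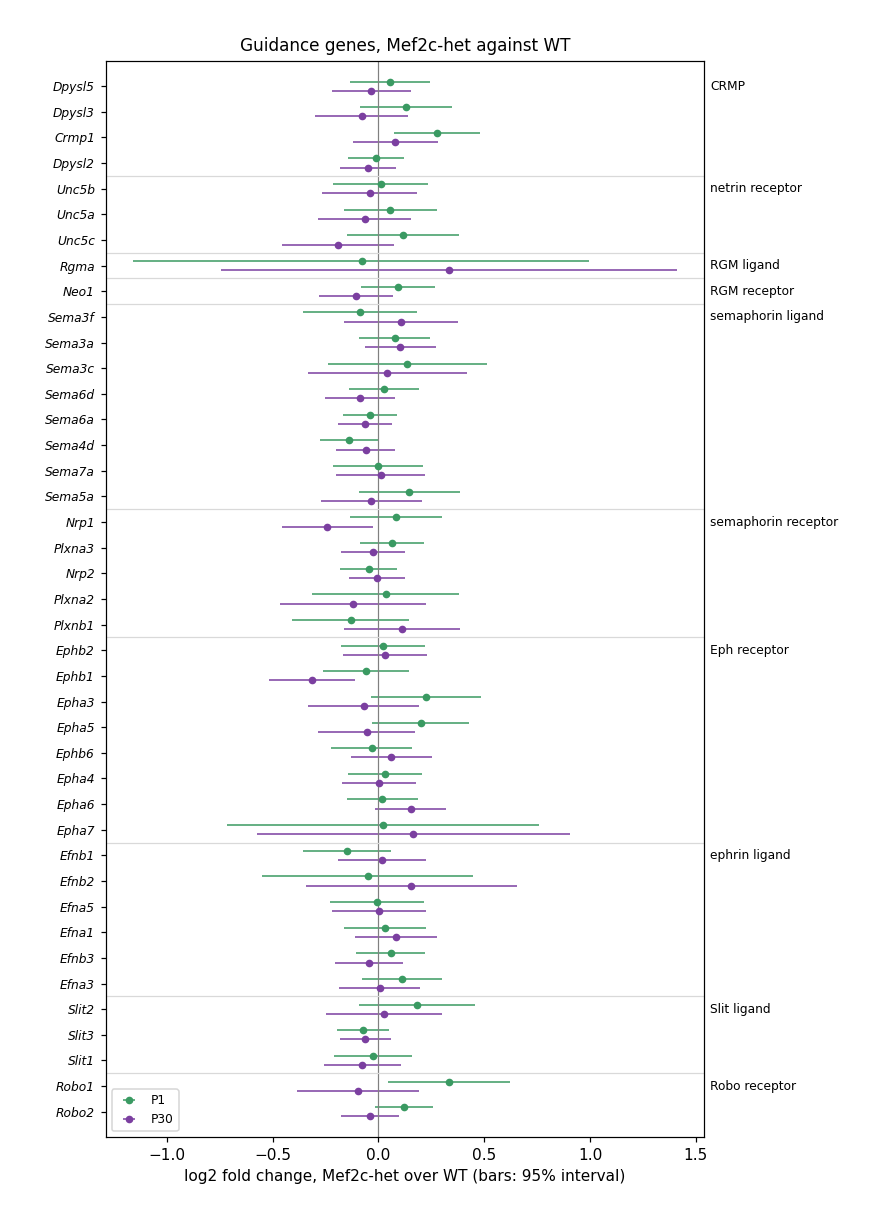
log2 fold change of *Mef2c*-het over WT (x axis) at P1 (green) and P30 (purple) for the 41 tested guidance genes (y axis), grouped by role, with 95% intervals of the limma fit on 4 arrays per group. The intervals of *Crmp1* and *Robo1* at P1 and of *Ephb1* and *Nrp1* at P30 leave out 0 without adjustment, and those of *Rgma*, *Epha7* and *Efnb2* are the widest. At P30 *Sema3c*, *Nrp2* and *Plxna3*, not detected there, and *Sema6a*, not detected there in *Mef2c*-het mice, are drawn at fitted values that are not measured differences.

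At P30 the largest difference relative to its error was that of *Ephb1*. It measured 10.48, 10.73, 10.78 and 10.82 in WT and 10.28, 10.41, 10.44 and 10.45 in *Mef2c*-het mice. All 4 *Mef2c*-het values were under the lowest WT value, which held for 1 of the 41 members in this direction and none in the other, beside 1.31% lower and 0.759% higher of all genes. The log2 difference was -0.31 ± 0.0961 SE (95% interval -0.516 to -0.108, unadjusted p = 0.00509 by limma, adjusted p = 0.994), and the two-sided exact permutation p was 0.0286, the smallest that 4 against 4 arrays can give. It was -0.28 (unadjusted p = 0.00861) with the array cluster as a block, -0.27 (0.0872) when arrays were scaled to a common median and -0.23 (0.0931) without the smaller clusters. At P1 *Ephb1* measured 11.30, 11.33, 11.35 and 11.59 in WT and 11.18, 11.21, 11.38 and 11.57 in *Mef2c*-het mice, which overlapped (log2 -0.06 ± 0.0961 SE).

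*Nrp1* was the second gene at P30. Its brighter probe measured 11.10, 11.13, 11.17 and 11.48 in WT and 10.81, 10.89, 11.10 and 11.10 in *Mef2c*-het mice, which overlapped (log2 -0.24 ± 0.102 SE, 95% interval -0.457 to -0.026, unadjusted p = 0.0304 by limma, exact permutation p = 0.0571). Its other probe measured 10.97, 11.09, 11.22 and 11.37 and 10.85, 10.86, 11.13 and 11.19 (log2 -0.15 ± 0.0962 SE, unadjusted p = 0.139 by limma). Both probes had the lower mean in *Mef2c*-het mice. Without WT P30 replicate 6, the highest WT array, the brighter probe had -0.16 (unadjusted p = 0.13), without *Mef2c*-het P30 replicate 3 it had -0.21 (0.0773) and without *Mef2c*-het P30 replicate 6 it had -0.19 (0.101). *Nrp1* is also a gene of vessels, and the 6 tested endothelial markers had a median log2 difference of -0.11 at P30 and 0.07 at P1 between genotypes, with 0 past the adjusted threshold by limma and 1 lower at an unadjusted p under 0.05 at P30, whose part in the *Nrp1* value was not tested. At P1 the brighter probe measured 12.58, 12.63, 12.76 and 12.89 in *Mef2c*-het mice (log2 0.08 ± 0.102 SE against WT) and the other 12.61, 12.64, 12.69 and 12.88 (log2 0.07 ± 0.0962 SE).

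**Figure D5:**
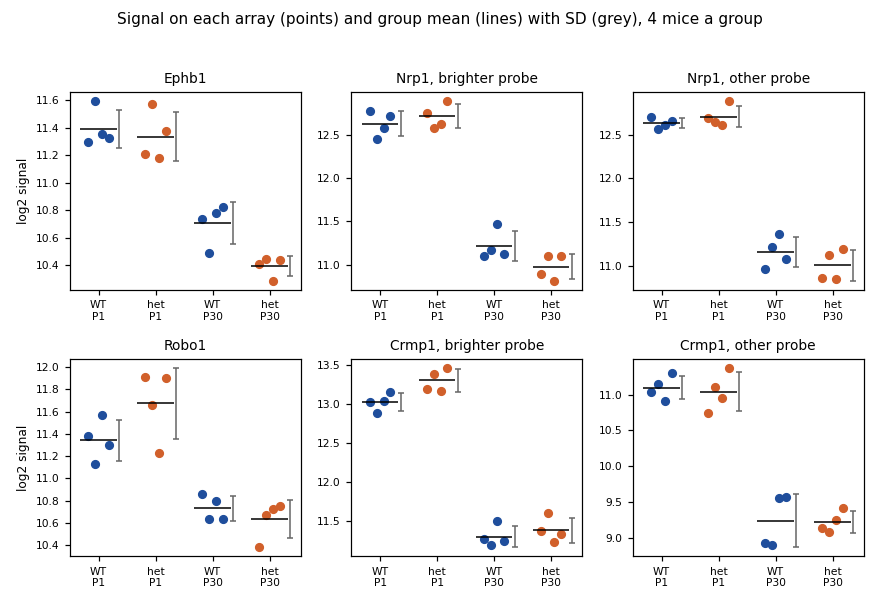
log2 signal (y axis, own scale in each panel, not starting at 0) on each array of *Ephb1*, both *Nrp1* probes, *Robo1* and both tested *Crmp1* probes by group (x axis), WT in blue and *Mef2c*-het (het) in orange, with lines for the group mean and grey bars for the SD. *Ephb1* at P30 and the brighter *Crmp1* probe at P1 are the panels in which the genotypes do not overlap at an age, and the second *Crmp1* probe overlaps at both ages.

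At P1 the 2 members were *Crmp1* and *Robo1*. The brighter *Crmp1* probe measured 12.88, 13.03, 13.05 and 13.16 in WT and 13.17, 13.20, 13.39 and 13.47 in *Mef2c*-het mice with no overlap (log2 0.28 ± 0.0949 SE, 95% interval 0.0757 to 0.478, unadjusted p = 0.0101 by limma, exact permutation p = 0.0286). It was the only member with all *Mef2c*-het arrays higher and none had all lower, beside 0.704% higher and 0.741% lower of all genes. The second *Crmp1* probe did not show it, with 10.91, 11.04, 11.14 and 11.30 in WT and 10.74, 10.95, 11.10 and 11.37 in *Mef2c*-het mice (log2 -0.06 ± 0.162 SE, 95% interval -0.4 to 0.287). *Robo1* measured 11.13, 11.30, 11.38 and 11.57 in WT and 11.23, 11.66, 11.91 and 11.91 in *Mef2c*-het mice at P1, which overlapped (log2 0.33 ± 0.136 SE, unadjusted p = 0.0265 by limma, exact permutation p = 0.143). Its unadjusted p rose to 0.0898 without WT P1 replicate 4, 0.0522 without WT P1 replicate 8, 0.0938 without *Mef2c*-het P1 replicate 1, 0.0905 without *Mef2c*-het P1 replicate 8 and 0.146 without the smaller clusters. At P30 *Robo1* measured 10.38, 10.67, 10.73 and 10.76 in *Mef2c*-het mice (log2 -0.10 ± 0.136 SE against WT) and the brighter *Crmp1* probe 11.22, 11.33, 11.37 and 11.60 (log2 0.08 ± 0.0949 SE).

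The genotype difference itself changed between the ages for no member at the adjusted threshold (limma, lowest adjusted p = 0.998), as for 0% of all genes. At an unadjusted p under 0.05 none was higher and 2 were lower, beside 1.27% and 1.93% of all genes. These were *Robo1* (log2 -0.43 ± 0.192 SE, 95% interval -0.838 to -0.0217, unadjusted p = 0.0403) and the brighter *Nrp1* probe (log2 -0.32 ± 0.144 SE, 95% interval -0.629 to -0.0198, unadjusted p = 0.0383). The other *Nrp1* probe had -0.22 ± 0.136 SE and *Ephb1* had -0.26 ± 0.136 SE (unadjusted p = 0.124 and 0.0784), so a change of the *Ephb1* difference with age was not shown.

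For the other genes of the pathway, a list of 35 further guidance ligands and receptors had 26 tested, of which 7 were higher and 11 lower at P30 in WT (26.9% and 42.3%, beside 29.1% and 32.8% of all genes). *Draxin*, a secreted netrin antagonist of forebrain commissures, had a mean of 9.92 ± 0.0929 (SD, n = 4) at P1 and was not detected at P30, at least 6.05-fold lower. *Efna4* had 8.44 ± 0.0513 and was likewise not detected at P30, at least 2.16-fold lower. *Dpysl4*, a further CRMP gene, went from 13.33 ± 0.0301 to 11.79 ± 0.102 (2.91-fold lower). *Plxnb3*, a plexin of oligodendrocytes and receptor for *Sema5a*, was not detected at P1 and reached 8.57 ± 0.121 at P30, at least 2.39-fold higher, while *Sema3e* and *Sema6b* rose by 1.91-fold and 1.64-fold. Of 15 guidance co-receptor adhesion molecules 13 were tested, with 5 higher and 5 lower (38.5% each), and of 56 intracellular guidance effectors 41 were tested, with 12 higher and 14 lower (29.3% and 34.1%). None of these 3 lists had a gene past the adjusted threshold between genotypes at P1 or P30 by limma. At an unadjusted p under 0.05, 0 of the 26 further ligands and receptors were higher and 2 lower at P1, beside 1.11% and 1.21% of all genes, and none of the adhesion molecules or effectors passed. At P30, 1 of the 26 was higher and 0 lower, 0 of the 13 adhesion molecules passed, and 3 of the 41 effectors were higher and 3 lower, beside 0.963% and 2.04% of all genes.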

How the data were processed

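The values that the authors deposited were, for each of 25697 probes and 16 arrays, a mean bead intensity with neither log scale nor normalization, a detection p-value from the negative controls, and the standard error and number of the beads. The study's methods give log2 transformation and quantile normalization, and the submitters' processing notes name limma and lumi. Each probe rested on a median of 36 to 39 beads with a bead standard error of 3.38% to 4.05%, and the number of arrays limits the precision of a comparison.

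From the deposited intensities, log2 values with no constant added were quantile normalized over all 16 arrays. A probe was tested if its detection p was below 0.05 on 4 or more of the 16 arrays, which left 14777. One linear model of group means was fitted with limma 3.58.1 in R 4.3.3 (lmFit, contrasts, eBayes), and two-sided p-values were adjusted by Benjamini-Hochberg across all tested probes. Nothing names separate litters, so p-values measure the spread between these mice. RefSeq annotation of GRCm38.p6 named 25376 of the 25697 probes. A gene was read from its probe of highest mean signal. Genotype differences of single genes were also set against all 35 splits of 8 arrays, a two-sided exact permutation test. For a probe detected on no array of a group, the fold is a bound, the mean of the other group over a floor that takes, per array, the higher of the lowest detected signal and the probe's own. The fit was run on simulated data with independent normal noise and no array clusters. There a genotype difference at P30 of 0.25 on the log2 scale was called in 16% of changed probes, and 0.5 in 74%. For the difference between the ages these shares were 4% and 38%, so small genotype differences would mostly be missed.

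Every member was named. Values of each array were given for the called members among the 12 largest WT rises and the 12 largest falls, for members with an unadjusted p under 0.05 or no overlap between genotypes, and for all probes of *Ephb1* and *Nrp1*. Of 3 lists of related genes, the 3 largest rises and falls were named, except for 1 gene that is not reported here. The members, these lists and the 10 marker lists were chosen with earlier results of these data known. The alternatives were normexp with offset 16, array scaling by the median, cyclic loess, all probes, a detection limit of 0.01, other variance models, blocks for replicate number or array cluster, omission of the smaller clusters, sex as a covariate, each age fitted alone, omission of each array and the other probes of a gene.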

Additional observations from a re-analysis of the deposited data

Results flagged for a closer look

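In 11 of 168 groups of 4 arrays that were examined, over the members and groups of the report, 1 array stood apart from the other 3 by Dixon's ratio, the gap to the nearest array divided by the range of the group, above the 95% critical value, where chance gives about 8.4. The array was the highest of its group for *Sema4d* in *Mef2c*-het P30 replicate 3 (ratio 0.847, log2 signal 7.53 against 7.44 for the next), *Sema5a* in WT P1 replicate 1 (0.835, 10.51 against 10.13), *Epha4* in *Mef2c*-het P1 replicate 8 (0.873, 7.70 against 7.48), *Efna1* in *Mef2c*-het P1 replicate 1 (0.858, 8.16 against 7.97), *Efna5* in *Mef2c*-het P1 replicate 8 (0.887, 10.15 against 9.88) and *Unc5a* in *Mef2c*-het P30 replicate 7 (0.886, 8.42 against 8.13). It was the lowest for *Sema6a* in WT P1 replicate 1 (0.978, 7.17 against 7.36), *Epha6* in *Mef2c*-het P30 replicate 7 (0.863, 7.42 against 7.71), *Efnb3* in WT P30 replicate 7 (0.966, 8.08 against 8.19), *Rgma* in WT P1 replicate 8 (0.848, 9.07 against 10.65) and *Neo1* in *Mef2c*-het P1 replicate 4 (0.866, 11.24 against 11.56). Of these arrays, *Mef2c*-het P1 replicate 8, *Mef2c*-het P30 replicate 7, WT P30 replicate 7 and WT P1 replicate 8 belong to the smaller array clusters.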

How the results depend on the processing

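No member passed the adjusted threshold between genotypes under any alternative run, and the count of members called lower at P30 (18 in each genotype) ran from 17 to 21 in WT and from 18 to 20 in *Mef2c*-het mice, not always the same members. Members called higher (7 in each genotype) were 4 in WT and 4 in *Mef2c*-het mice with the replicate block. In the replicate block, *Efna3*, *Slit1*, *Unc5b*, *Sema6d* and *Efna5* lost their calls in WT, and *Slit1*, *Unc5a*, *Unc5b*, *Sema6d*, *Efna5* and *Plxna3* in *Mef2c*-het mice. Only the numbers 2 (WT P30 and *Mef2c*-het P1) and 5 (WT P1 and *Mef2c*-het P30) occur at both ages. With this block every comparison of the ages therefore rests on those numbers, across genotypes. With sex as a covariate *Rgma*, *Sema3c* and *Efna3* lost theirs in WT and *Sema3c* and *Plxna3* in *Mef2c*-het mice. Same-numbered arrays were not paired in the main fit. The correlations of their deviations ran from 0.0909 to 0.82 at P1 and from -0.522 to 0.697 at P30. Of 12 arrays, 6 correlated best with their own number among the 4 arrays of the other genotype at their age. Whether that exceeds chance was not tested. The highest values, 0.82 for P1 replicate 8 and 0.697 for P30 replicate 7, were between arrays of the smaller clusters. Whether arrays of a number shared a litter or chip is not in the labels and was not tested. Members at an unadjusted p under 0.05 (2 in each genotype comparison) were, at P1, 4 with normexp, 1 with scaling to a common median, 5 with the replicate block, 5 with the array cluster as a block and 2 to 5 with each array left out. At P30 they were 0 with scaling, 1 without the smaller clusters (neither *Ephb1* nor *Nrp1*) and 1 to 3 with each array left out. For the difference between the ages they were 0 with normexp, 0 with scaling, 4 with the replicate block, 4 with the cluster block, 0 with sex as a covariate and 0 to 5 with each array left out. Over all probes, the 2 called at P1 became 0 with scaling, the replicate block, sex or the 8 P1 arrays alone, 1 with cyclic loess, no filter or without the smaller clusters, and 0 to 2 with each array left out. The 1 called at P30 became 0 with scaling, the replicate block or without the smaller clusters and 1 to 2 with each array left out, and the 0 for the difference became 1 with the cluster block. The *Ephb1* difference at P1, -0.06, ran from -0.136 to 0.009976 with each array left out, and turned positive without WT P1 replicate 4. Fold sizes with age moved too, over the alternatives that left out no single array. *Dpysl5* ran from -4.315 to -3.867 in WT and *Dpysl3* from -4.482 to -3.383. In *Mef2c*-het mice they reached -4.415 and -4.786, so the largest fall was not of the same gene throughout. In WT, *Slit1* ran from 0.3205 to 1.278, *Unc5a* from 0.4908 to 1.264 and *Sema3f* from -2.69 to -1.726. The cause of these moves was not tested. A slide block was planned and not run, since the columns name no slide. Calls at P1 and P30 rest on 4 arrays a group, and probes near background give only bounds.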

Other observations

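The adhesion molecules and cytoskeletal effectors that work with guidance receptors moved in both directions between P1 and P30 in WT mice. Of the adhesion molecules, *Ncam1*, the neural cell adhesion molecule, rose by 4.17-fold (log2 2.06 ± 0.106 SE, adjusted p = 6.60e-11 by limma), *Cntn1*, a contactin of the axon surface, by about 1.00 on the log2 scale (SE 0.13) and *Nrcam*, a co-receptor in semaphorin signalling, by 1.90-fold (0.93 ± 0.0662). *Chl1*, another co-receptor of the L1 family, fell by 0.92 on the log2 scale (SE 0.0928), *Cntn6* fell by 0.88 (SE 0.102) and *Cntnap2* fell by 0.80 (SE 0.237). Of the effectors, *Gap43*, the growth cone protein, fell by 2.18 (SE 0.376) from 11.82, 12.79, 12.85 and 12.86 at P1 to 9.59, 9.86, 10.99 and 11.15 at P30, *Cfl1*, which encodes the actin-severing cofilin, fell by 1.90 (SE 0.101) and *Mical1*, an actin-oxidizing enzyme downstream of plexins, fell by 1.37 (SE 0.0566). *Ngef*, the exchange factor ephexin downstream of EphA receptors, rose by 3.54-fold and *Ppp3ca*, the catalytic subunit of calcineurin, by 3.39-fold. All of these genes passed the adjusted threshold and were detected on all 8 WT arrays.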
